A study of Mus musculus with 4 samples.

Results

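Translation initiation factors (eIFs) are the proteins that bring the small ribosomal subunit, the initiator tRNA and an mRNA together at a start codon. They were taken here as the rows of the deposited expression table whose gene symbol begins with Eif, with Eif pseudogene rows (names holding "-ps") and 1 further gene left out. This gave 58 genes of 37305 rows. All 58 were matched to a RefSeq symbol or synonym. The rule read the symbol and no expression value. It also took in 5 entries, Eif2c1 to Eif2c5. Eif2c1 to Eif2c4 are older symbols of Argonaute genes, whose products bind small RNAs in gene silencing rather than start translation. Eif2c5 was matched to no newer symbol and is grouped with them by name. These entries are described apart from the factors, at the end.

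The RNA came from natural killer (NK) cells, lymphocytes that kill infected or transformed cells, taken from spleens of C57BL/6 mice at postnatal day 56. All cells first spent 24 hours in culture with recombinant IL-15 (50 ng/ml), the cytokine that NK cells need to survive. The control group (2 libraries) was then mock treated for 24 hours, and the DKK2 group (2 libraries) received DKK2 at 200 ng/ml for the same time. DKK2 (Dickkopf 2) is a secreted ligand of the Wnt co-receptors LRP5 and LRP6. The comparison asks how exposure to DKK2 altered the transcriptome of IL-15-cultured NK cells. The sources used here give no sorting markers, number of mice or purity of the cells.

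Initiation begins when eIF2, loaded with GTP, carries the initiator tRNA to the small subunit, helped by eIF1, eIF1A, eIF5 and the large scaffold eIF3. The cap of the mRNA is held by eIF4E, which with the scaffold eIF4G and the RNA helicase eIF4A recruits the ribosome, while eIF4E-binding proteins (4E-BPs) compete with eIF4G for eIF4E. After each round eIF2B reloads eIF2 with GTP, and kinases that phosphorylate eIF2 in stress block that step. In NK cells IL-15 is known to activate the kinase mTOR, which phosphorylates the 4E-BPs, so this machinery is part of how the cytokine supports growth. RNA levels give no measure of that phosphorylation.

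The deposited values are FPKM, that is fragments scaled to the length of the transcript and to the depth of the library, so they can be compared between genes. Depth was highest in control replicate 1, and the other libraries had 0.351 to 0.401 times as much, as read from the steps between low values. In these, 1 fragment in a transcript of 1 kb was worth 0.044 to 0.050 FPKM. All 10 NK marker genes were present in every library. Their sum was 15809 and 13316 FPKM in the controls and 10059 and 9636 with DKK2. Most of each sum was Gzmb, at 11543 and 9908 against 6895 and 6115 FPKM. The DKK2 mean was lower for 4 of the 10 and higher for 6. Markers of other cells differed between libraries, and their sums were lowest in control replicate 1. Summed monocyte and macrophage markers were at 8.37 and 285 FPKM in the controls and at 743 and 459 with DKK2. Neutrophil markers were at 1.06 and 56.0 against 3355 and 109.9, B cell markers at 6.22 and 192 against 379.8 and 410.3, and T cell markers at 66.2 and 157 against 245 and 199. In control replicate 1, 2 of the 9 monocyte and macrophage markers and 2 of the 6 neutrophil markers were listed at 0. The part of these cells in the values below was not tested, and in bulk RNA fewer cells of a type and less RNA per cell cannot be told apart.

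Most factor genes were abundant. Of the 58 genes, 54 averaged 1 FPKM or more across libraries and were tested. Eif2s3y, Eif4e1b and Eif2c5 were listed at 0 in every library. Eif2c4, with a mean of 0.214 FPKM, was the only other gene under the filter, and the lowest genes above it were Eif4ebp3, Eif5a2 and Eif3j, with means of 3.10, 3.15 and 4.16 FPKM. The mean was at least 100 FPKM for 20 genes, from 10 to under 100 for 27 and under 10 for 7. The median level of the 54 was 55.6 and 55.1 FPKM in the controls and 55.9 and 46.1 FPKM with DKK2, where the median of all 12275 genes tested lay between 12.4 and 14.1 FPKM. In 49 of the 54 the highest library was under 2 times the lowest.

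**Figure D1:**
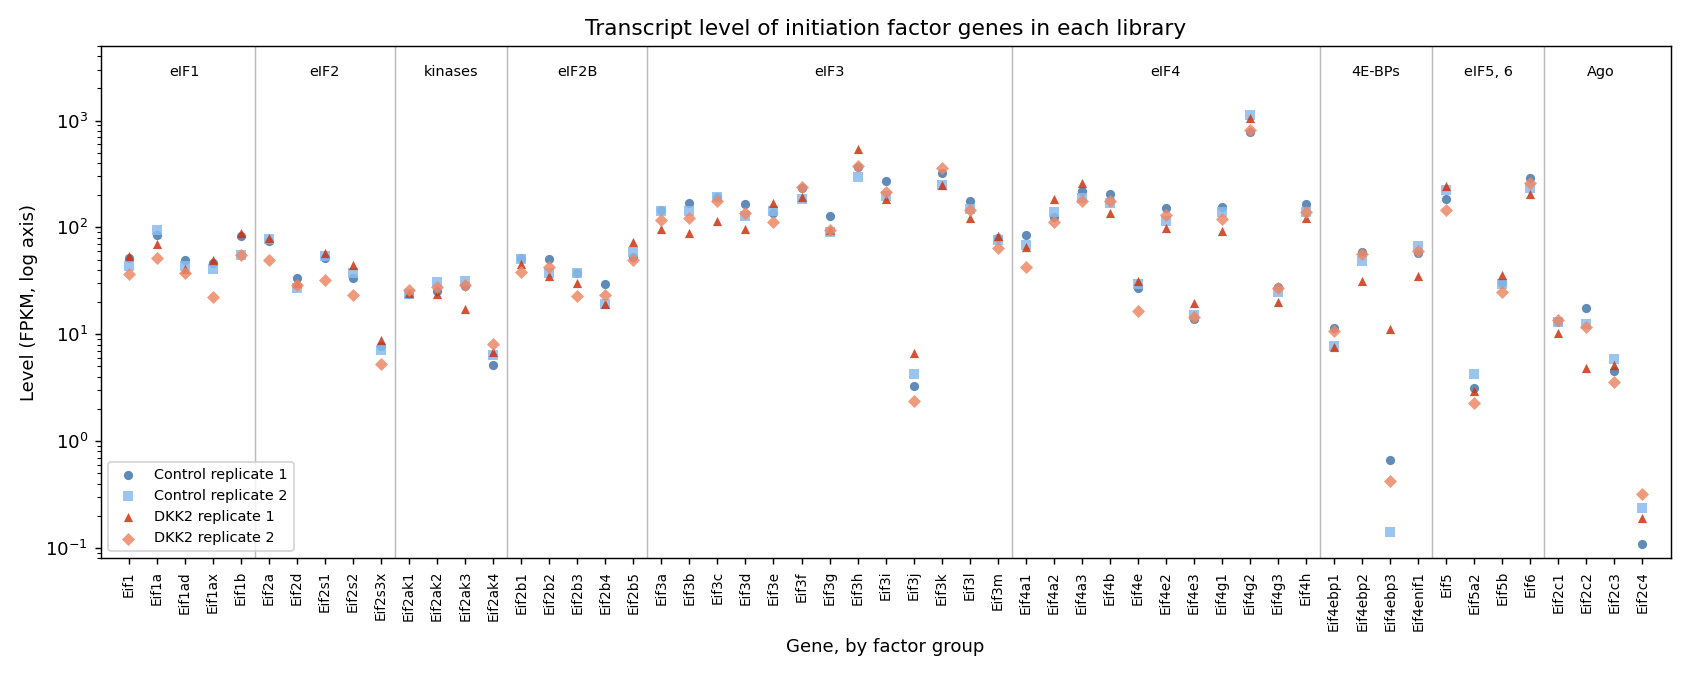
Level of each initiation factor gene in the 4 libraries, in FPKM on a log axis, with genes ordered within their complex. Each point is 1 library, coloured by group, and the 3 genes listed at 0 are not drawn. The most abundant gene, Eif4g2, averages 948 FPKM, and the points of the groups overlap for most of them.

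No initiation factor gene passed the test of DKK2 against control. The adjusted p was 1 for all 54 (limma, Benjamini-Hochberg over all genes tested), the smallest unadjusted p was 0.0994, and 0 had an unadjusted p under 0.05. Over all genes the same fit called 4 of 12275, or 0.0326%, and 226, or 1.84%, had an unadjusted p under 0.05. Differences are given as DKK2 minus control on the log2(FPKM + 1) scale with the standard error (SE) of the fit. The median SE of the 54 genes was 0.30, and the 95% interval of the difference included 0 for each of them. With 2 libraries a group the data therefore bound most of these genes loosely and do not show that they were equal.

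More of the differences lay below 0 than above. The DKK2 mean was lower for 41 of the 54 genes and higher for 13, with a median difference of −0.17, against −0.05 over all genes tested. Over all genes, 6918 of 12275 differences lay below 0. When the libraries were scaled to the same median, the median was −0.10 against 0.01 for all genes, and 37 differences lay below 0. Leaving out control replicate 2 moved the median of the factor genes to −0.25, and leaving out any other library gave −0.12 to −0.19. The differences below 0 fell to 31 of the 54 without DKK2 replicate 2, and numbered 35 to 43 without any other library. Both DKK2 libraries lay below both controls for 13 genes, 24.1% of the 54, where the share over all genes was 14.8%. These were Eif1a, Eif1ad, Eif2b1, Eif2b3, Eif3a, Eif3b, Eif3c, Eif3l, Eif4a1, Eif4g1, Eif4h, Eif5a2 and the Argonaute entry Eif2c2. Both DKK2 libraries lay above both controls for 3 genes, Eif2ak1, Eif2ak4 and Eif3h, which is 5.56%, where the share over all genes was 11.8%.

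The libraries of a group often differed as much as the groups did. The DKK2 libraries differed from each other by more than the group means did in 41 of the 54 genes, and the controls did so in 28. DKK2 replicate 2 was the lowest of the 4 libraries for 23 genes and DKK2 replicate 1 for 20, against 4 and 7 for control replicates 1 and 2. Control replicate 1 was the highest library for 23 genes, DKK2 replicate 1 for 19, control replicate 2 for 7 and DKK2 replicate 2 for 5. DKK2 replicate 1 was lowest for 37.0% of the factor genes and 35.5% of all genes tested, and highest for 35.2% and 27.7%. DKK2 replicate 2 was lowest for 42.6% of the factor genes and 25.7% of all genes, and control replicate 1 highest for 42.6% and 31.6%. Over the 54 genes the log2 levels of DKK2 replicate 1 correlated with those of the other libraries at Pearson r from 0.931 to 0.941, while the other 3 libraries correlated among themselves at 0.981 to 0.989. Without Eif4ebp3 these ranges were 0.950 to 0.972 and 0.979 to 0.988. Over all genes tested the ranges overlapped, at 0.883 to 0.912 and 0.891 to 0.923. These are correlations across genes, given as a description.

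**Figure D2:**
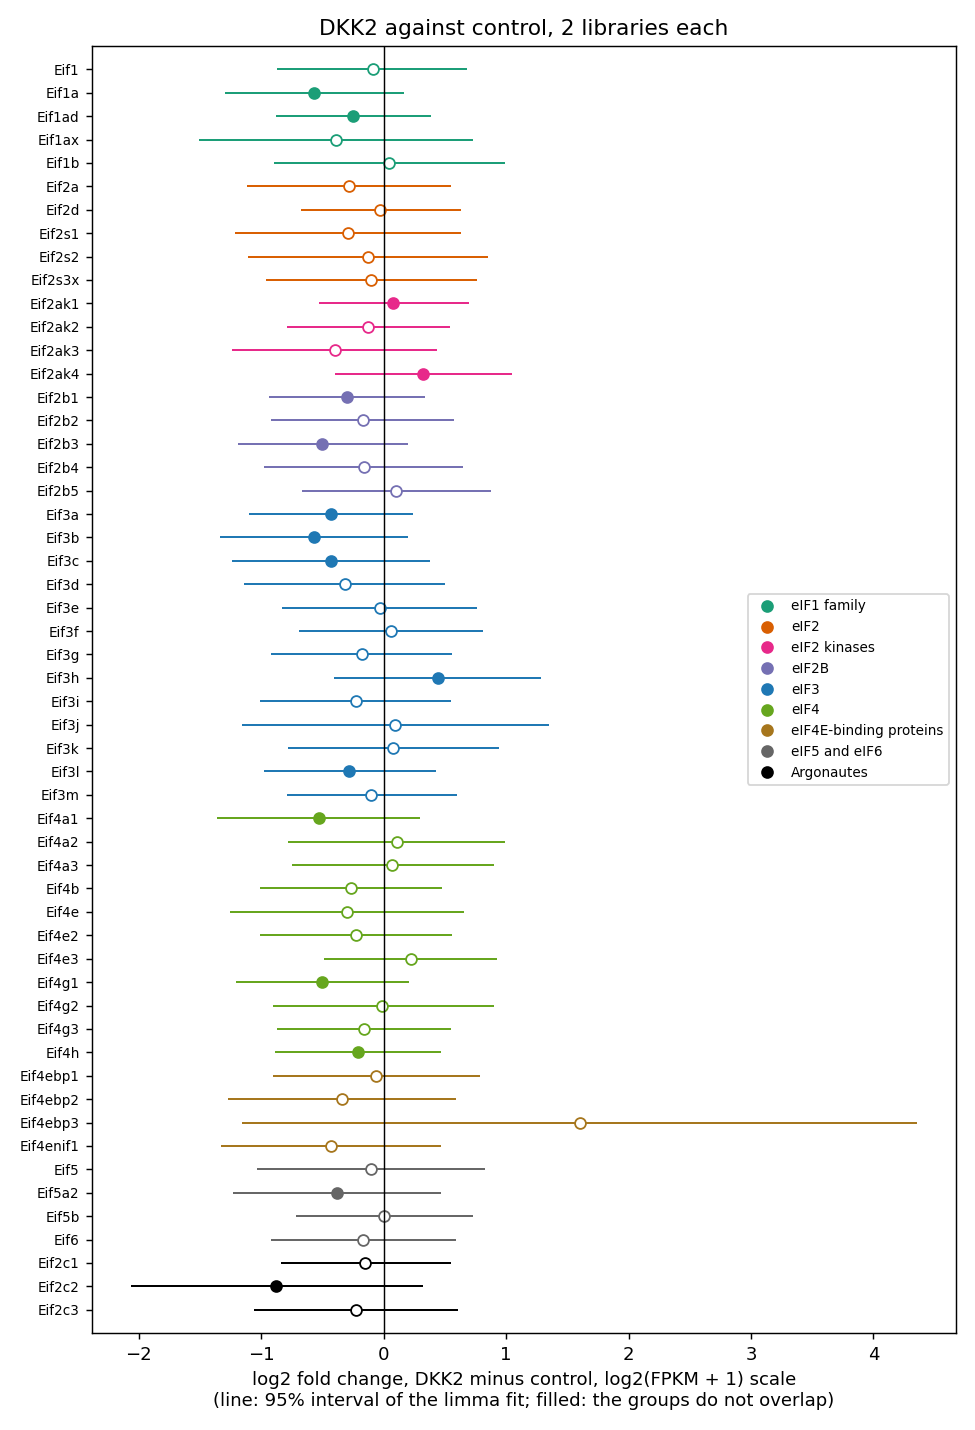
Difference of each tested gene between DKK2 and control, in log2(FPKM + 1), with its 95% interval from limma as a line. Filled points mark the 13 genes with both DKK2 libraries below both controls and the 3 with both above, and every interval crosses 0.

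The eIF1 family holds the small proteins that help the scanning ribosome choose the start codon. The median difference of its 5 genes was −0.25, and 4 of the 5 differences lay below 0. Eif1a, a gene of the eIF1A family, stood at 84.2 and 95.4 FPKM in the controls, against 70.4 and 51.3 FPKM with DKK2. Its groups did not overlap, and the difference was −0.57 (SE 0.28, 95% interval −1.29 to 0.16), or −0.34 without DKK2 replicate 2. Eif1ax, the X-linked eIF1A gene, stood at 46.9 and 41.1 FPKM in the control libraries and 49.5 and 22.2 FPKM in the DKK2 libraries, so only DKK2 replicate 2 was low. Eif1, which guards against initiation at wrong codons, was at 51.8, 43.8, 53.8 and 37.0 FPKM in control replicates 1 and 2 and DKK2 replicates 1 and 2, an order kept for each list of 4 values from here on. Its paralog Eif1b was at 82.5, 55.7, 88.2 and 55.5 FPKM, with the replicates of each group far apart. Eif1ad, an eIF1A domain gene, was at 49.8, 43.1, 40.6 and 37.2 FPKM. All 5 genes of the family were lowest in DKK2 replicate 2.

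The eIF2 complex has an alpha, a beta and a gamma subunit. The alpha subunit gene Eif2s1, whose product is the target of the stress kinases, stood at 51.8 and 54.5 FPKM under mock treatment and 57.9 and 32.0 FPKM under DKK2. The beta subunit gene Eif2s2 was at 33.4 and 37.3 against 44.7 and 23.2 FPKM. The gamma subunit, which binds GTP and the tRNA, has an X-linked gene, Eif2s3x, at 7.69 and 7.09 against 8.83 and 5.24 FPKM. All 3 subunit genes were highest in DKK2 replicate 1 and lowest in DKK2 replicate 2, with the controls between them. The median gap between the DKK2 libraries was 0.83 on the log2 scale. The ratio of Eif2s2 to Eif2s1 was 0.646, 0.686, 0.772 and 0.726, and that of Eif2s3x to Eif2s1 was 0.149, 0.130, 0.153 and 0.164.

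The Y-linked gamma subunit gene Eif2s3y was listed at 0 in all 4 libraries. The Y-linked gene Ddx3y was at 0.00895, 0.00546, 0.0193 and 0.00319 FPKM, and Xist, the RNA of the inactive X chromosome, at 27.2, 52.1, 97.2 and 34.1 FPKM. Eif2a and Eif2d encode other factors that can deliver the initiator tRNA. Eif2a was at 75.0, 78.6, 80.0 and 49.5 FPKM, again lowest in DKK2 replicate 2, and Eif2d at 33.5, 27.3, 30.4 and 28.9 FPKM. Over the 5 tested genes of this list the median difference was −0.13, and for none did the groups separate. The median moved to −0.58 without DKK2 replicate 1 and to 0.12 without DKK2 replicate 2, so its direction depended on the DKK2 library.

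The 5 subunits of eIF2B form the exchange factor that reloads eIF2. Eif2b3 encodes gamma, a subunit of the catalytic part, and stood at 37.5 and 37.4 FPKM in the controls, against 30.4 and 22.7 FPKM with DKK2. The controls were nearly equal, both DKK2 libraries lay below them, and the difference was −0.50 (SE 0.26, 95% interval −1.18 to 0.19). It was −0.29 without DKK2 replicate 2. Eif2b1, the alpha subunit that senses phosphorylated eIF2, was at 51.3, 51.0, 45.0 and 38.0 FPKM, also without overlap. Eif2b5, the catalytic epsilon subunit, was at 53.4, 58.4, 73.5 and 49.2 FPKM, with the DKK2 libraries on either side of the controls. The ratio of Eif2b5 to Eif2b3 was 1.42 and 1.56 in the controls and 2.42 and 2.17 with DKK2. The beta and delta subunit genes Eif2b2 (51.2, 37.4, 34.8 and 43.0 FPKM) and Eif2b4 (29.5, 19.1, 19.1 and 23.2 FPKM) were highest in control replicate 1 and overlapped otherwise. The median difference of the 5 was −0.17. It was 0.04 without control replicate 1 and −0.40 without control replicate 2, so its direction depended on the control library.

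The 4 kinases that phosphorylate eIF2 had a median difference of −0.02, with 2 differences below 0 and 2 above. Eif2ak1 (HRI, which senses lack of haem) was at 23.6, 23.8, 24.2 and 26.2 FPKM, a difference of 0.08 (SE 0.23) that was 0.14 without DKK2 replicate 1 and 0.03 without DKK2 replicate 2. Eif2ak4 (GCN2, which senses uncharged tRNA) stood at 5.11 and 6.38 FPKM in the control libraries and 6.78 and 8.09 FPKM in the DKK2 libraries, a difference of 0.32 (SE 0.28). It was 0.19 without control replicate 1 and 0.21 without DKK2 replicate 2. These were the kinases with both DKK2 libraries above both controls. Eif2ak2 (PKR, which senses double-stranded RNA) was at 25.5, 30.6, 23.6 and 27.6 FPKM (−0.13, SE 0.25), and Eif2ak3 (PERK, which senses unfolded protein in the endoplasmic reticulum) at 28.4, 31.5, 17.4 and 28.7 FPKM (−0.40, SE 0.32). The difference of Eif2ak2 was −0.25 and 0.00 when control replicates 1 and 2 were left out, and −0.02 and −0.24 when DKK2 replicates 1 and 2 were. For Eif2ak3 only DKK2 replicate 1 was low, and the difference was −0.06 without it and −0.75 without DKK2 replicate 2. Eif2ak4 was the least abundant of the 4 in every library.

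**Figure D3:**
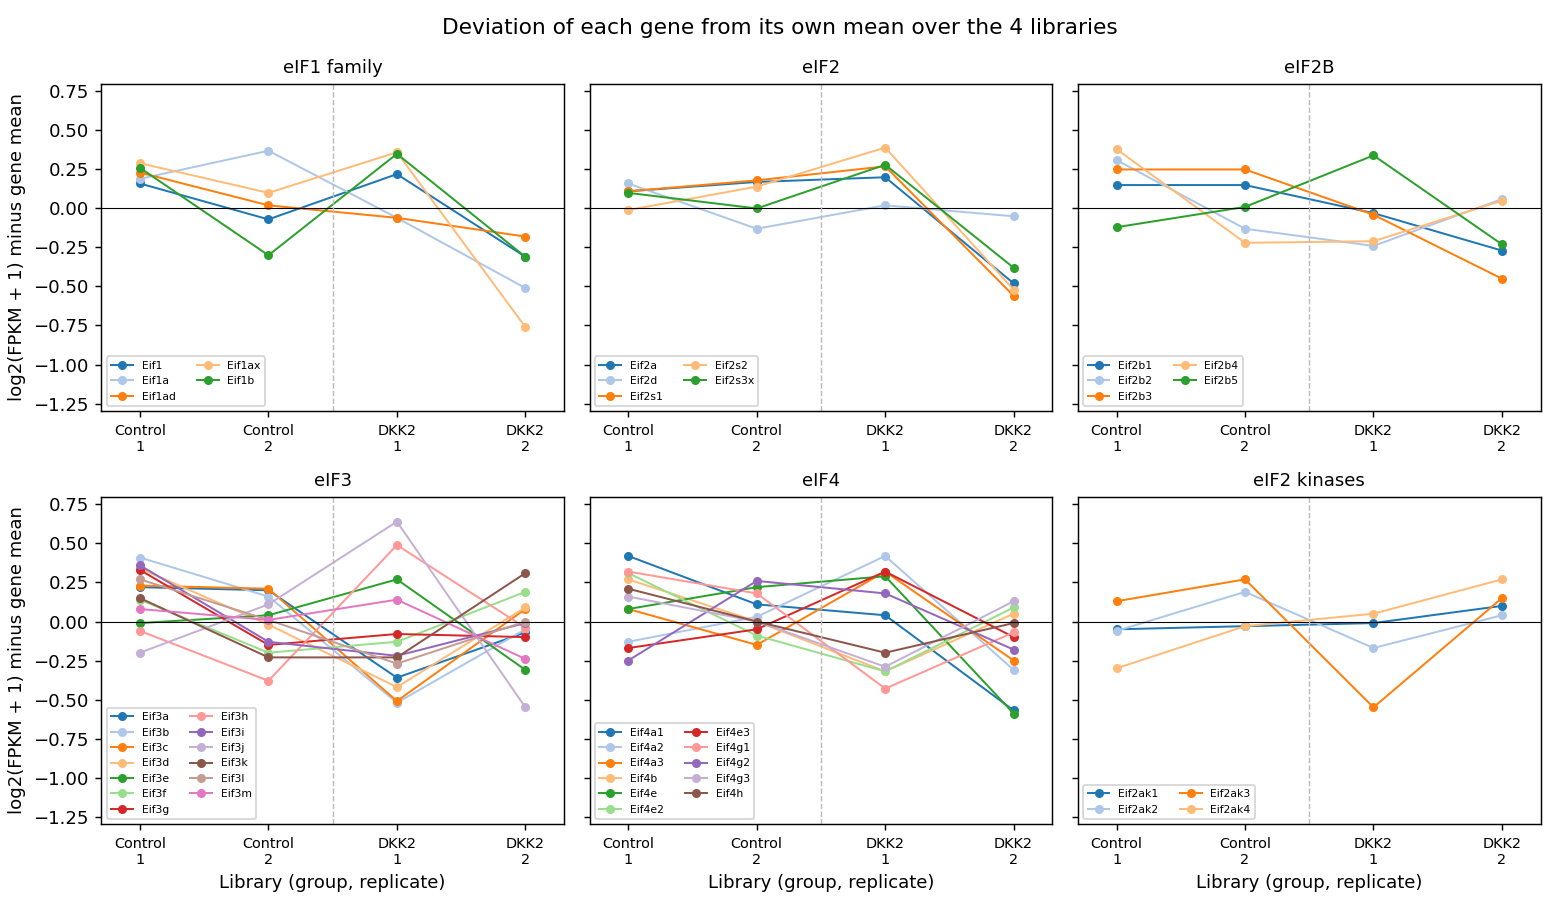
Profiles over the 4 libraries, in log2(FPKM + 1) minus each gene's own mean over the libraries, for the eIF1 family, eIF2, eIF2B, eIF3, eIF4 and the eIF2 kinases. Each line is 1 gene, and lines join libraries only to show which values belong together. The 3 eIF2 subunit genes peak in DKK2 replicate 1, whereas several eIF3 genes have their low point there.

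The scaffold eIF3 has 13 subunit genes in the table, all tested and most of them above 100 FPKM. Short stretches before the start site are shown for 5 of them because these genes hold the same ETS letters, CCGGAAG or on the other strand CTTCCGG, close to the annotated start. The stretches are from the RefSeq promoter table of build GRCm38.p6, 5′ to 3′ on the gene's strand, with the matches in capitals.
Eif3c (chr7:126566367-126566474, minus strand): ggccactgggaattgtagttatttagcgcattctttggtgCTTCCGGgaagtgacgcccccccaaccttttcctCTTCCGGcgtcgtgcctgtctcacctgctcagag
Eif3d (chr15:77970848-77970934, minus strand): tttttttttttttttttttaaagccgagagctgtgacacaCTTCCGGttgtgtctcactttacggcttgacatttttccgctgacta
Eif3g (chr9:20898591-20898674, minus strand): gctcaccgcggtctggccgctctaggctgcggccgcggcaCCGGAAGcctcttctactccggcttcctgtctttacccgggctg
Eif3l (chr15:79075148-79075222, plus strand): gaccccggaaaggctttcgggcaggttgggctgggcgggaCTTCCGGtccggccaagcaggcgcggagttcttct
Eif3m (chr2:105017036-105017122, minus strand): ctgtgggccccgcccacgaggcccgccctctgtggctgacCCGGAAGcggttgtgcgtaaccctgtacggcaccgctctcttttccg
The ETS letters, part of the sequence that ETS family transcription factors bind, begin 34 to 70 bases before the start site in these genes, and Eif3c holds them at 68 and at 34 bases. RefSeq promoters were found for 46 of the 58 genes, with 55 start sites. Within the 250 bases before the start, 12 of these 55 promoters (21.8%) held the letters on either strand, against 15.1% of the 10661 promoters of genes tested and 6.91% of all 32851. A match describes letters, not binding.

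Among eIF3 genes 9 of 13 differences lay below 0, with a median of −0.18. It was −0.41 without control replicate 2 and −0.06 without control replicate 1. The core subunit gene Eif3b stood at 169 and 142 FPKM under mock treatment and 88.1 and 122 FPKM under DKK2, a difference of −0.57 (SE 0.29, 95% interval −1.33 to 0.19), or −0.34 without DKK2 replicate 1. Eif3c was at 194 and 191 against 116 and 175 FPKM, a difference of −0.43 (SE 0.31), and it was −0.13 without DKK2 replicate 1 and −0.73 without DKK2 replicate 2. The largest subunit, Eif3a, was at 145 and 143 against 96.2 and 118 FPKM, and Eif3l at 178 and 149 against 122 and 147 FPKM. In each of these 4 genes both DKK2 libraries lay below both controls, and DKK2 replicate 1 was the lower of the pair.

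Eif3h was the eIF3 gene with the opposite arrangement. It stood at 371 and 298 FPKM in the controls, against 544 and 376 FPKM with DKK2, a difference of 0.44 (SE 0.33, 95% interval −0.40 to 1.28). DKK2 replicate 2 exceeded control replicate 1 only slightly, and the difference was 0.18 without DKK2 replicate 1, 0.71 without DKK2 replicate 2 and 0.29 without control replicate 2. The ratio of Eif3h to Eif3b was 2.19 and 2.1 in the controls and 6.17 and 3.07 with DKK2. This ratio had to differ between the groups, because in both DKK2 libraries Eif3h lay above and Eif3b below both controls. Eif3f, which like Eif3h carries an MPN domain, was at 233, 184, 193 and 241 FPKM, with the groups overlapping.

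The remaining eIF3 genes overlapped between groups. Eif3k was at 323, 248, 249 and 361 FPKM and Eif3i at 274, 196, 184 and 213 FPKM, so for both a DKK2 library lay within or beyond the controls. Eif3d, whose product can bind the cap of some mRNAs, was at 164, 127, 96.4 and 138 FPKM, and Eif3g was at 127, 90.8, 95.4 and 93.9 FPKM. Eif3m was at 79.8, 76.1, 83.2 and 63.8 FPKM. Eif3e was at 138, 144, 169 and 113 FPKM. Its level is uncertain, because the table lists pseudogene rows of this gene's older name at 78.2, 74.9, 129 and 69.8 FPKM (Eif3s6-ps1) and at 580.3, 557, 444 and 407 FPKM (Eif3s6-ps2). Eif3j, which binds eIF3 loosely, was the least abundant at 3.28, 4.29, 6.69 and 2.36 FPKM, with DKK2 replicate 1 the highest and DKK2 replicate 2 the lowest. By domain, the 6 subunits with a PCI domain (a, c, e, k, l and m) had a median difference of −0.19. The MPN subunits f and h both had differences above 0, but that of Eif3f was only 0.06. For Eif3f it was −0.11 without control replicate 2 and −0.10 without DKK2 replicate 2. The other 5 subunits had a median of −0.23.

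Most factors of the eIF4 group bind the cap or unwind the mRNA. Stretches are shown for 4 of its genes because they hold CACGTG, the E-box letters that MYC and related factors bind. They are from the same table and build, with the E-box in capitals.
Eif4a1 (chr11:69672550-69672669, minus strand): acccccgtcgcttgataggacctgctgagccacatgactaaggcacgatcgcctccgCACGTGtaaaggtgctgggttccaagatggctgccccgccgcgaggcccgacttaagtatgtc
Eif4e (chr3:138527018-138527266, plus strand): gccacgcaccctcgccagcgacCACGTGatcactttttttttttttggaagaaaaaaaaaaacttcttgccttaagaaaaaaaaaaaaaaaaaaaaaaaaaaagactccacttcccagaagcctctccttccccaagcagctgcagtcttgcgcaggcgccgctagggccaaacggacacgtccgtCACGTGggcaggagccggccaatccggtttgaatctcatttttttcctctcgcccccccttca
Eif4g1 (chr16:20672616-20672726, plus strand): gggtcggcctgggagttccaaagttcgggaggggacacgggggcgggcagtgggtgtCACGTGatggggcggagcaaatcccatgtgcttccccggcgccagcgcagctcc
Eif4h (chr5:134639443-134639562, minus strand): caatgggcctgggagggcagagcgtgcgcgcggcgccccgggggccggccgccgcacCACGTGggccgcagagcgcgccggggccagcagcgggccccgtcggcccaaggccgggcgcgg
The matches begin 189 bases before the start site in Eif4a1, 228 and 64 in Eif4e, 54 in Eif4g1 and 96 in Eif4h. CACGTG reads the same on both strands, and its matches did not overlap those of the ETS letters. It was in 8 of the 55 promoters (14.5%), those of Eif1b, Eif3f, Eif3k, Eif4a1, Eif4e, Eif4g1, Eif4h and Eif5a2, against 8.40% of the promoters of genes tested and 6.02% of all. Of the 10 genes with a promoter in the table and both DKK2 libraries below both controls, 4 held the E-box and 4 the ETS letters. Of the other 36 with a promoter, 4 held the E-box and 8 the ETS letters. These counts are small and were not tested. The 10 genes were picked by their values in these same libraries, and the 36 were not limited to tested genes. Shares over all genes split in this way were not computed, so no link of the letters to DKK2 is read from the counts. The RNA of Myc itself was at 64.6, 45.1, 57.6 and 52.0 FPKM. The ATF4 element letters TGATGNAA were in 1 promoter, that of Eif2s3x (1.82%), against 2.02% of the promoters of genes tested, and the cAMP response element TGACGTCA was in 0, against 2.72%.

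Among the genes named Eif4a to Eif4h, 8 of 11 tested had a difference below 0, with a median of −0.21, and −0.10 without control replicate 1. The helicase gene Eif4a1 stood at 85.2 and 68.3 FPKM in the control libraries and 65.0 and 42.4 FPKM in the DKK2 libraries, a difference of −0.53 (SE 0.32, 95% interval −1.35 to 0.29). The groups did not overlap, but DKK2 replicate 1 lay just under control replicate 2, and the difference was −0.23 without DKK2 replicate 2 and −0.83 without DKK2 replicate 1. A pseudogene row, Eif4a-ps4, was listed at 328, 354, 339 and 263 FPKM, so the level of Eif4a1 is uncertain. Its paralog Eif4a2 was at 126, 141, 186 and 112 FPKM with the DKK2 libraries outside the controls on both sides. The ratio of Eif4a1 to Eif4a2 was 0.674 and 0.484 in the controls and 0.350 and 0.380 with DKK2.

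Eif4g1, the main scaffold, stood at 156 and 141 FPKM under mock treatment and 91.9 and 119 FPKM under DKK2, a difference of −0.50 (SE 0.27, 95% interval −1.20 to 0.20), or −0.32 without DKK2 replicate 1. Both DKK2 libraries lay below both controls. Its relative Eif4g3 was at 27.8, 24.7, 20.1 and 27.1 FPKM, and the ratio of Eif4g1 to Eif4g3 was 5.59 and 5.69 against 4.56 and 4.38. Eif4g2, which lacks the eIF4E-binding region, was the most abundant factor gene at 789, 1119, 1059 and 825 FPKM. For Eif4g2 the lowest and the highest value were both in the controls.

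Eif4e, the cap-binding protein gene, was at 27.0, 29.7, 31.4 and 16.5 FPKM, low only in DKK2 replicate 2. Eif4e2, whose product binds the cap and represses some mRNAs, was at 153, 115, 98.2 and 131 FPKM, and Eif4e3 at 13.8, 15.1, 19.7 and 14.5 FPKM. Eif4e2 RNA was 5.66, 3.87, 3.13 and 7.90 times that of Eif4e, a ratio whose extremes were both in DKK2 libraries. The helicase cofactor Eif4h was at 164, 141, 122 and 141 FPKM, where DKK2 replicate 2 and control replicate 2 print alike and lie close together. Its partner Eif4b was at 205, 169.6, 136 and 177 FPKM. Eif4a3, a helicase of the exon junction complex rather than of the cap complex, was at 221, 188, 262 and 176 FPKM, and both of these genes overlapped between groups.

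The 4E-binding proteins hold eIF4E away from eIF4G until mTOR phosphorylates them. Eif4ebp2 was at 59.2, 48.4, 31.7 and 56.0 FPKM, a difference of −0.34 (SE 0.36) that became 0.06 without DKK2 replicate 1, −0.74 without DKK2 replicate 2 and −0.19 without control replicate 1. Eif4ebp1 was at 11.5, 7.71, 7.64 and 10.7 FPKM, a difference of −0.06 (SE 0.32). It was 0.20 and −0.32 when control replicates 1 and 2 were left out, and 0.16 and −0.27 when DKK2 replicates 1 and 2 were, so its sign changed. Eif4enif1, which encodes a carrier of eIF4E into the nucleus, was at 57.8, 66.9, 35.0 and 60.1 FPKM, a difference of −0.43 (SE 0.34) that was −0.05 without DKK2 replicate 1 and −0.81 without DKK2 replicate 2. In these 3 genes DKK2 replicate 1 was the lowest library and DKK2 replicate 2 lay between the controls.

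Eif4ebp3 had the widest range of all, at 0.662 and 0.140 FPKM in the controls and at 11.2 and 0.423 FPKM with DKK2. Its difference of 1.60 (SE 1.06, 95% interval −1.15 to 4.35) was 0.05 without DKK2 replicate 1, 3.14 without DKK2 replicate 2 and 2.51 with a pseudocount of 0.1. The value in control replicate 2 is worth about 2 fragments, where every other tested factor gene had about 259 or more in each library. Eif4ebp3 lies against the gene Ankhd1, which was at 49.9, 61.5, 49.3 and 52.7 FPKM, and the sources used here do not say how the counting split them. The 4E-BP2 to eIF4E RNA ratio was 2.20, 1.63, 1.01 and 3.39, with both extremes in the DKK2 libraries. Eif4ebp2 RNA was 5.14, 6.27, 4.15 and 5.25 times that of Eif4ebp1.

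The factors that act at subunit joining and around it overlapped between groups, except Eif5a2. Eif5, which makes eIF2 hydrolyse GTP, was at 183, 226, 245 and 145 FPKM, and Eif5b, the GTPase of subunit joining, at 29.9, 29.8, 35.6 and 25.1 FPKM. Both were highest in DKK2 replicate 1 and lowest in DKK2 replicate 2. Eif6, which keeps the large subunit from joining too early, was at 290.0, 234, 206 and 260.4 FPKM and overlapped. Eif5a2 stood at 3.14 and 4.26 FPKM in the controls, against 2.93 and 2.28 FPKM with DKK2, without overlap but near the low end of the genes tested.

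The Argonaute entries were low. Eif2c2 (Ago2, the slicing Argonaute) stood at 17.6 and 12.5 FPKM in the control libraries and 4.83 and 11.8 FPKM in the DKK2 libraries. Its difference of −0.88 (SE 0.46, 95% interval −2.06 to 0.31) was the largest downward difference among the 54 and was −0.31 without DKK2 replicate 1 and −1.44 without DKK2 replicate 2. Eif2c1 was at 13.1, 13.1, 10.2 and 13.6 FPKM and Eif2c3 at 4.52, 5.89, 5.11 and 3.55 FPKM, both with overlap. The ratio of Eif2c2 to Eif2c1 was 1.34, 0.954, 0.475 and 0.867. Leaving out the Argonaute entries was an alternative added after the data were seen. Both DKK2 libraries then lay below both controls for 12 factor genes (23.5%) and above for 3 (5.88%). Over all genes these shares were 14.8% and 11.8%. The median difference of the factor genes was −0.17 as before.

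The opposite patterns in the DKK2 libraries went with the base composition of the transcripts. Each of the 54 genes was matched to its longest coding transcript in GENCODE M21, as were 82.5% of all genes tested. Among the 27 factor genes with a GC content below the median of 49.8%, 7 were lower in DKK2 replicate 1 than in replicate 2, and the median difference between these libraries was 0.42. Among the 27 at or above it, 18 were lower in replicate 1, with a median of −0.27. For example, Eif2s1 (40.8% GC), Eif1ax (39.7%) and Eif4e (40.5%) were lower in replicate 2, and Eif3b (55.9%), Eif3d (54.6%) and Eif6 (57.9%) were lower in replicate 1.

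The rank correlation of GC content with the difference between DKK2 replicates 1 and 2 was −0.50 over the factor genes and −0.52 over all genes. Between the controls (replicate 2 minus 1) it was −0.67 over the factor genes and −0.47 over all genes, so the control libraries also differed with GC content. For the group difference, DKK2 minus control, it was 0.05 and −0.09. With transcript length, the group difference correlated at −0.28 over the factor genes and −0.21 over all genes. Both DKK2 libraries lay below both controls for 8 of the 27 genes of lower GC content and for 5 of the 27 of higher content. The share over all genes tested was 14.8%. It was not computed by GC content, so these 2 counts have no matching background. These correlations are across genes that share libraries and are given without a test, and the part of base composition in the differences was not tested.

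**Figure D4:**
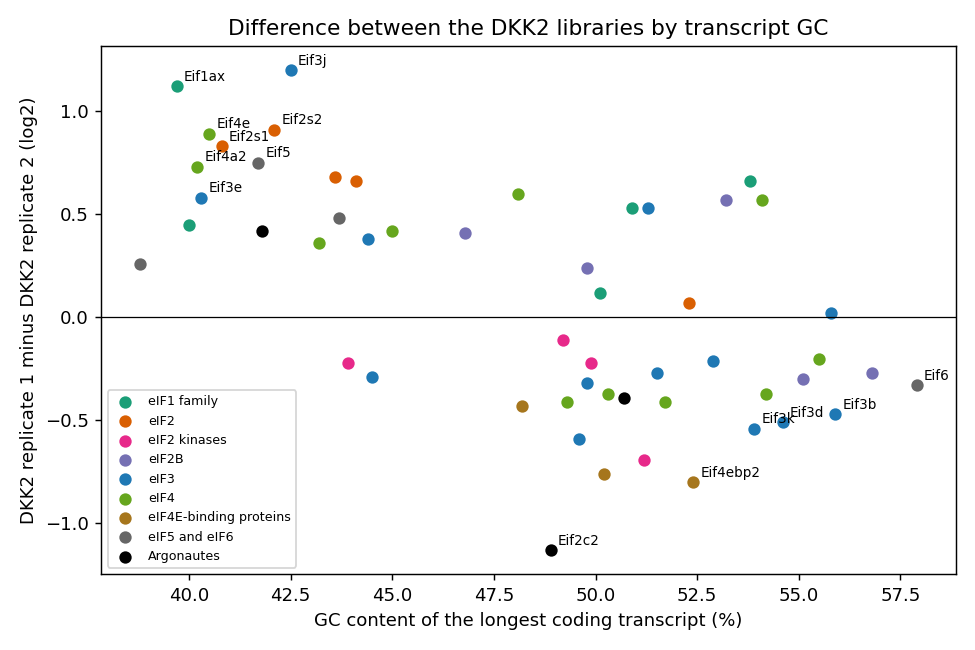
Difference between the DKK2 libraries (replicate 1 minus replicate 2, log2(FPKM + 1)) against the GC content of each gene's longest coding transcript, in percent, for the tested factor genes. Eif4ebp3, with a difference of 3.09, lies outside the axis, and genes of low GC content lie mostly above 0.

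Other genes of the pathway were read from 5 lists of 41 genes, of which 39 were tested. None passed the test, 0 had an unadjusted p under 0.05 (limma), 28 differences lay below 0 and 11 above, and the median was −0.13. Both DKK2 libraries lay below both controls for 8 (20.5%) and above for 3 (7.69%), where the shares over all genes were 14.8% and 11.8%. In the list of cap complex partners and kinases, 7 of 16 (43.8%) lay below in both and 1 (6.25%) above, with a median of −0.33. The RNA-binding protein gene Larp1, an mTOR target, stood at 68.0 and 52.8 FPKM under mock treatment and 24.3 and 45.8 FPKM under DKK2 (−0.82, SE 0.38), and the helicase gene Ddx3x at 173 and 155 against 73.3 and 154 FPKM (−0.62, SE 0.42). In both genes DKK2 replicate 1 was the lowest library.

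Among 10 tested partners of eIF2, none had groups that did not overlap, and the median was −0.08. Gcn1l1, whose product activates GCN2, was at 34.1, 22.2, 7.51 and 22.3 FPKM (−1.02, SE 0.55), low in DKK2 replicate 1 alone. Ddit3, a stress transcription factor gene, was at 10.7, 7.60, 9.44 and 20.4 FPKM (0.58, SE 0.43), high in DKK2 replicate 2 alone. Of 8 elongation factors 1 lay below in both and 1 above (12.5% each), near the shares over all genes of 14.8% and 11.8%. The largest differences of this list were those of Eef2 at 973, 647, 291 and 874 FPKM (−0.65, SE 0.60) and Eef1e1 at 71.1, 57.2, 64.1 and 31.0 FPKM (−0.51, SE 0.41). The 3 tested termination and recycling factors had a median of −0.41 and no separation, with Abce1 (−0.46, SE 0.35) and Etf1 (−0.41, SE 0.32). The mitochondrial initiation factors Mtif2 (0.25, SE 0.27) and Mtif3 (0.04, SE 0.30) had differences above 0, and for Mtif2 the printed values of 20.2 FPKM in control replicate 1 and in DKK2 replicate 2 lie close together.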

How the data were processed

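RNA from 2 control and 2 DKK2 libraries of cultured mouse NK cells was measured by sequencing of strand-specific total RNA libraries, per the labels' protocols. The authors deposited 1 table of FPKM values, per the file headers, although its name speaks of RPKM. Build mm9 and the tools Cuffdiff 2.1.0, TopHat2 2.1.0, edgeR and CASAVA are named in the submitters' processing notes, with no roles. The annotation and the treatment of strand and of multiply mapped fragments are not given in the sources used here. Each of the 4 value columns belongs to 1 library, and 0 were left aside.

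From the deposited FPKM values, log2(FPKM + 1) was computed. Genes averaging 1 FPKM or more were tested in R 4.3.3 by limma 3.58.1 (eBayes with trend), two-sided, with Benjamini-Hochberg adjustment over all genes tested and a threshold of 0.05. The scale understates differences of low genes. An exact permutation test of 2 libraries against 2 cannot go below p = 0.333. Whether replicates came from separate animals or cultures is not stated, so p-values reflect the spread between these libraries alone, and that spread may be technical. Depth was read from the most frequent ratio between libraries among genes of 400 to 5000 bases under 0.3 FPKM.

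The members and lists were chosen with earlier results of these data known. Difference and SE were given for the 10 members with the largest absolute difference, the eIF2 kinases and the 4E-binding proteins, and for the 2 largest of each list of other pathway genes. Alternatives were another pseudocount, other filters, other scalings, summed rows of a repeated symbol, a replicate block, leaving out each library and, added after the data were seen, leaving out the Argonaute entries. The script was tested on simulated data with less spread between libraries and larger differences than the fit gave for the factor genes. That test does not show how well differences of the size reported here are found.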

Additional observations from a re-analysis of the deposited data

How the results depend on the processing

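No factor gene passed the threshold in any setting that kept all 4 libraries (limma, smallest adjusted p 0.990, with no filter on low values). Over all genes, 4 passed as reported, and 0 with no filter on low values (where 949 had an unadjusted p under 0.05). Leaving out 1 library leaves that group with a lone sample, assumed to vary like the other group. From those fits only the differences are read. Without control replicates 1 and 2, the sign changed for 8 and 7 of the 54 factor genes. It changed for 10 and 14 without DKK2 replicates 1 and 2. With the replicate numbers as a block 8 genes passed, none of them a factor gene. Nothing says that the numbers pair libraries, and deviations of same-numbered libraries correlated at 0.012 over all genes. Over the libraries left out in turn, the median difference ranged from −0.25 to −0.12 for the 54 genes, from −0.58 to 0.12 for eIF2, from −0.40 to 0.04 for eIF2B, from −0.41 to −0.06 for eIF3 and from −0.24 to −0.10 for eIF4. The genes with both DKK2 libraries below both controls ranged from 18 to 30, and those above from 5 to 21, since fewer libraries have to be in order. Over all genes tested the shares in these settings were 23.8% to 41.8% below and 22.7% to 32.7% above. Without DKK2 replicate 2, 26 of the 54 genes lay below and 21 above, where the shares over all genes were 41.8% and 32.6%. For single genes, Eif2ak2 ranged from −0.25 to 0.00, Eif4ebp1 from −0.32 to 0.20 and Eif4ebp2 from −0.74 to 0.06. Eif4ebp1 was at 0.00 with libraries scaled to the same median. There, 10 genes lay below both controls in both DKK2 libraries, against 11 with quantile normalization and 13 as reported. The shares over all genes in these 3 settings were 11.5%, 14.0% and 14.8%. Beyond construction, the cause of these shifts was not tested. The fewest fragments lay behind Eif4ebp3, about 28, 2, 187 and 7 fragments in control replicates 1 and 2 and DKK2 replicates 1 and 2.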
